A study of Mus musculus with 81 samples.

Results

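The regions described here are places where RBPJ was listed at chromatin carrying H3K4me3 in mouse T cells both with and without an added active Notch1. They are the regions of the RBPJ list of a control line that overlapped, by at least 1 bp, a region of the RBPJ list made with BioNICD1 and a region of the H3K4me3 list. The control list held 1752 regions, and 1147 of them met the rule, which is 65.5% of that list. The BioNICD1 list held 3735 regions and the H3K4me3 list 42879. Both RBPJ lists and the H3K4me3 list chose the regions, so overlap with those lists is given as a description; the members were chosen by called RBPJ and H3K4me3 signal. The name promoter-type rests on H3K4me3 alone, since gene positions of the lists' genome build, mm9, were not used here. For the same reason no region is paired with a gene or a sequence.

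RBPJ is the DNA-binding protein of the Notch pathway. Without a Notch signal it can hold corepressors at its target sites. When a Notch receptor is cleaved, its intracellular domain enters the nucleus, binds RBPJ and, with Mastermind, brings in coactivators such as EP300. Notch signalling is best known in this lineage for its part in the development of T cells. H3K4me3 is the histone mark typical of active promoters, H3K27ac lies at active promoters and enhancers, and H3K4me1 is common at enhancers and on the flanks of promoters. ATAC-seq marks DNA that a transposase can reach.

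The cells are a hybridoma line with features of mature T cells. The control line (Control_sgRbpj) is the CRISPR control for RBPJ depletion, and the labels list 3 RBPJ ChIP-seq samples and 1 input for it. BioNICD1 is a biotin-tagged intracellular domain of Notch1 brought in by infection, and the labels list 2 RBPJ ChIP-seq samples and 1 input for its wild-type form (BioNICD1_WT). Those labels do not name the CRISPR control as the background of the BioNICD1 cells, and no region list of the vector control (Biocontrol) was used, so an effect of BioNICD1 and a difference between the cells cannot be told apart. The ATAC-seq list names the control line, which has 3 samples. The H3K4me3, H3K27ac and H3K4me1 lists name no line; the series holds each mark in the control line and in line 2-12, depleted of RBPJ by CRISPR, with 2 samples each. A histone mark list may therefore pool both lines. The lists give positions only, with no peak height and no value per replicate, so no share or distance here has a replicate error and none was tested. A region absent from a list was not called in it, which is not the same as unbound.

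The RNA-seq libraries were used only to check the labels. In 10 libraries of the control line, line 2-12 and the control line with Biocontrol or BioNICD1, totals ran from 2377028 to 10069390 counts. Rbpj stood at 170 and 134 CPM (counts scaled to a library total of 1000000) in the control line and at 44.2 and 32.2 CPM in line 2-12, so the libraries did not overlap. It stood at 86.2, 85.8 and 93.9 CPM with Biocontrol and at 81.6, 88.2 and 94.2 CPM with BioNICD1, which do overlap. All 9 T cell markers were in the table, 7 of them exceeded 10 CPM in every library, and their sum ran from 1415 to 4006 CPM. Cd4 stood at 0.841 and 2.29 CPM in the control line and at 61.0 and 63.8 CPM in line 2-12. With Biocontrol or BioNICD1 it ran from 5.13 to 8.38 CPM. Cd247, the zeta chain of the T cell receptor complex, ran from 30.1 to 37.9 CPM in the control line and line 2-12. It ran from 8.24 to 11.3 CPM with Biocontrol or BioNICD1. Ptprc was instead higher with Biocontrol or BioNICD1, at 2065 to 2327 CPM against 618 to 990 CPM. The B cell marker Ms4a1 was at 0 in all 10 libraries, and Cd22, another, reached 229 CPM in the BioNICD1 libraries. Summed markers reached 58.9 CPM for myeloid cells, 13.3 CPM for erythroid cells and 1.04 CPM for fibroblasts.

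Most of the control list was of this kind. Of its 1752 regions, 1706 (97.4%) overlapped H3K4me3 and 1163 (66.4%) overlapped the BioNICD1 list. Both conditions left 1147, and 16 more lay in both RBPJ lists but outside H3K4me3. Of the 1706 control regions at H3K4me3, 1147 (67.2%) overlapped the BioNICD1 list. Of the 3467 BioNICD1 regions at H3K4me3, 1146 (33.1%) overlapped the control list. The shared counts are nearly equal, so the difference between these shares restates the unequal lengths of the lists. The shared regions are set beside 559 control-only regions at H3K4me3, 2321 BioNICD1-only regions at H3K4me3, and 23648 ATAC regions that overlap H3K4me3 and neither RBPJ list, called open H3K4me3 without RBPJ.

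Some regions lay near the limits of the rule on both sides. The smallest overlaps with the BioNICD1 list among the members were 10, 39, 62, 76 and 91 bp. On the other side of the limit, the control-only regions nearest to a BioNICD1 region were 45, 50, 79, 82 and 145 bp away, and 4 of the 559 were closer than 100 bp. The smallest stretches inside H3K4me3 among the members were 16, 21, 21, 24 and 28 bp. The nearest regions that failed the H3K4me3 condition missed it by 1, 7, 7, 17 and 39 bp.

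Each shared region was nearly always a meeting of 1 region from each list. Of the 1147, 1141 had 1 BioNICD1 partner and 6 had 2. The overlap had a median of 321 bp (quartiles 240 to 425.5 bp), which covered a median of 75.6% of the control region and 92.1% of the partner. In 932 members (81.3%) the overlap took in at least 50% of both regions. The partner lay wholly inside the control region in 397 members, and the control region lay wholly inside its partner in 169. The BioNICD1 partner was the narrower of the pair in 767 members and the wider in 378. Control regions had a median width of 467 bp (quartiles 356.5 to 605.5 bp, range 158 to 2911 bp) and partners 386 bp (quartiles 281 to 519 bp, range 97 to 1249 bp). Across the 1147 pairs, the widths had a Spearman rho of 0.415 and a Pearson r of 0.447, given as a description, since both are positions called at the same loci.

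The rule makes the 2 regions of a pair overlap, which limits how far apart their centres can lie. The distances are therefore given as a description. The centres were a median of 62 bp apart (quartiles 29 to 121 bp). They were within 50 bp of each other in 480 members, within 100 bp in 768 and more than 250 bp apart in 56. The BioNICD1 centre lay at the higher coordinate in 675 members and at the lower in 470, with a median signed difference of 20 bp (quartiles -41 to 84.75 bp). The strand of transcription was not used, so this offset has no direction relative to a gene. Against the centre of the ATAC region that holds them, control centres lay at a median of -47.5 bp (684 below, 458 above) and partner centres at -29 bp (637 below, 505 above). The other RBPJ sets were offset to lower coordinates too, with medians of -53 bp for control-only and -23.75 bp for BioNICD1-only regions. In absolute distance, control centres lay a median of 144 bp and partner centres 154.5 bp from the ATAC centre.

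**Figure D1:**
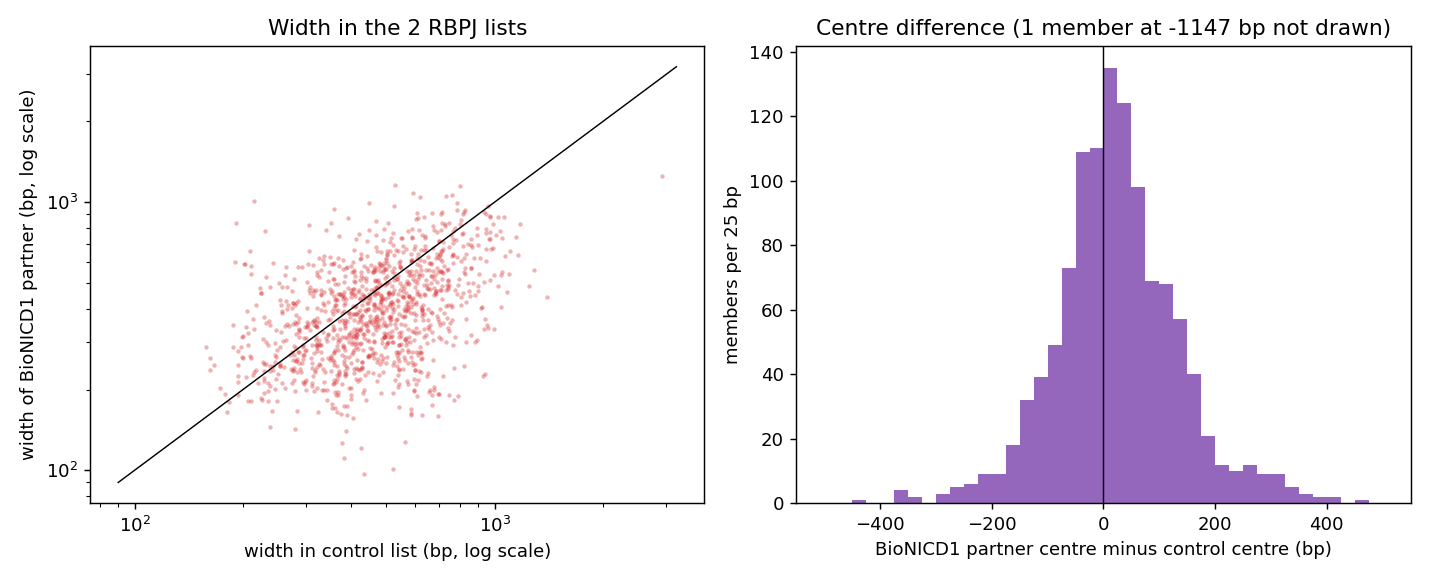
Left, each point is 1 of the 1147 shared regions, with the width of the control region on the x axis and of its BioNICD1 partner on the y axis (both bp, log scale) and the line of equal width; 767 points lie under the line. Right, a histogram in 25 bp bins of the BioNICD1 centre minus the control centre (bp), which is centred near 0 with a median of 20 bp; the member at -1147 bp is not drawn.

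The best matched and worst matched members show what the pairs look like, on mm9 coordinates. At chr4:151235848-151236816 the control region of 969 bp held its whole partner, chr4:151235891-151236775, and the centres were 1 bp apart. At chr1:163000143-163001076 the overlap was 882 bp of a 934 bp control region, inside an H3K4me3 region of 3831 bp. At chrX:133275839-133276799 the overlap was 898 bp, but the H3K4me3 region covered 483 bp of the 961 bp control region. These are overlaps of near full width. At chr3:97461624-97462595 the overlap was 879 bp, and this member also touched H3K4me1. The widest overlap, 933 bp, belonged to an unusual member, chr8:125955176-125958086. It was 2911 bp wide, the widest of all members, had 2 partners and lay in an H3K4me3 region of 7971 bp, and its centre was 1147 bp from that of its larger partner.

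At the other end, chr19:16854858-16855356 shared 10 bp with a partner of 345 bp, and the centres were 412 bp apart. Both nonetheless lay in the H3K4me3 region chr19:16852174-16856293, which is 4120 bp wide. The next was chr5:147032730-147033155, with 39 bp shared and centres 448 bp apart. The overlaps were 62 bp at chr9:55174169-55174753, 76 bp at chr19:60965492-60966054 and 91 bp at chr6:133985056-133985658. All 5 touched ATAC and H3K27ac regions, although the RBPJ calls met by little.

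Accessible chromatin was listed at nearly every shared region. An ATAC region overlapped 1143 of 1147 (99.7%), and 1088 (94.9%) lay wholly inside 1. The shares were 99.6% for control-only and 98.8% for BioNICD1-only regions, so nearly all regions of the 3 RBPJ sets were listed as accessible. The ATAC regions at the members had a median width of 1326 bp (quartiles 1127 to 1580 bp). The medians were 1302 bp at control-only, 1246.5 bp at BioNICD1-only and 816 bp at open H3K4me3 without RBPJ. A wider ATAC region offers more length for an overlap with RBPJ, and its part in this order was not tested. The 4 members with no ATAC region were 187 to 312 bp wide, and all 4 touched H3K27ac. One of them, chr5:89103997-89104308, lay 14 bp from an ATAC region; chr1:136233669-136233855, chr7:28714305-28714598 and chr7:39009809-39010028 lay 3778, 3494 and 2100 bp from one.

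The H3K4me3 regions at the members were wide. Their median was 2068 bp (quartiles 1531.5 to 2837.5 bp, range 143 to 16692 bp), against 2005 bp at control-only regions, 1867 bp at BioNICD1-only regions and 1278 bp at open H3K4me3 without RBPJ. The median of the whole H3K4me3 list was 1009 bp. A longer H3K4me3 region is met more easily by an RBPJ region, and the part of length in these differences was not tested. The members used 1141 different H3K4me3 regions as their largest overlap, so 6 of these held 2 members. The member centre lay inside H3K4me3 in 964 cases (84.0%), and there the nearer edge was a median of 727 bp and the farther edge 1432.5 bp away. The nearer edge is the closer by definition, so these medians are a description and no position relative to the middle is read from them. The widest host, chr19:44366183-44382874, spanned 16692 bp around the member chr19:44368169-44368690, which lay toward its lower end. The next were chr15:66790279-66802255 with 11977 bp and chr10:41988291-41998044 with 9754 bp.

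H3K27ac was also listed at most members, and H3K4me1 at few. H3K27ac overlapped 1125 of 1147 (98.1%), against 96.6% of control-only regions, 95.2% of BioNICD1-only regions and 83.3% of open H3K4me3 without RBPJ. H3K4me1 overlapped 131 members (11.4%), against 15.7%, 20.6% and 73.0%. The compared intervals differ in width, so the base at the centre was also read. H3K27ac covered it in 74.2% of members, 72.1% of control-only, 79.1% of BioNICD1-only and 74.7% of open regions without RBPJ. By that measure members were not the highest for H3K27ac and stood near open regions without RBPJ. H3K4me1 covered the centre base in 3.05% of members, 4.29% of control-only, 10.5% of BioNICD1-only and 44.8% of open regions without RBPJ. The shared regions had the lowest H3K4me1 share of the 4 sets on both measures. The centres are RBPJ centres in 3 sets and ATAC centres in the last. At the ATAC centre in every set, H3K4me1 covered 3.70% of ATAC regions with a member and 4.01% of those with a control-only region and no member. The shares there were 10.7% with a BioNICD1-only region and no member and 44.8% without RBPJ. Members and control-only regions were thus close by that measure. The combination of ATAC and H3K27ac without H3K4me1 held 999 members (87.1%), and 122 touched all 3 lists. The rest were 15 with ATAC alone, 7 with ATAC and H3K4me1, and the 4 with no ATAC, of which 2 touched H3K4me1.

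Most of the 22 members without H3K27ac lay close to it. At chr2:166539107-166539541 the nearest H3K27ac region was 2 bp away and at chr2:163028705-163028898 it was 3 bp away. Others were far from the mark. The farthest, chr18:46471263-46471730, was 12449 bp from H3K27ac, and chr12:104579237-104579904, a member of 668 bp, was 8339 bp from it. Both touched H3K4me1. At chr2:127410081-127410492 the distance was 2331 bp and at chr11:116954017-116954250 it was 1838 bp. The members without H3K27ac thus include regions just past an edge and regions with none nearby.

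Around the member centres the lists formed nested layers. ATAC covered 99.5% of members at the centre, 71.9% at 500 bp and 15.3% at 1000 bp, as the mean of both sides. H3K4me3 covered 84.0% at the centre and rose to 94.0% at 325 bp. H3K27ac covered 74.2% at the centre and 89.8% at 350 bp, and fell to 40.1% at 1000 bp. Both marks therefore had a dip at the RBPJ centre where ATAC was highest. H3K4me1 ran the other way on a wider scale, from 3.05% at the centre to 19.8% at 500 bp, with a highest share of 42.9% at 1100 bp and 36.9% at 2000 bp. The BioNICD1 list covered 89.7% of the centres of the control regions.

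**Figure D2:**
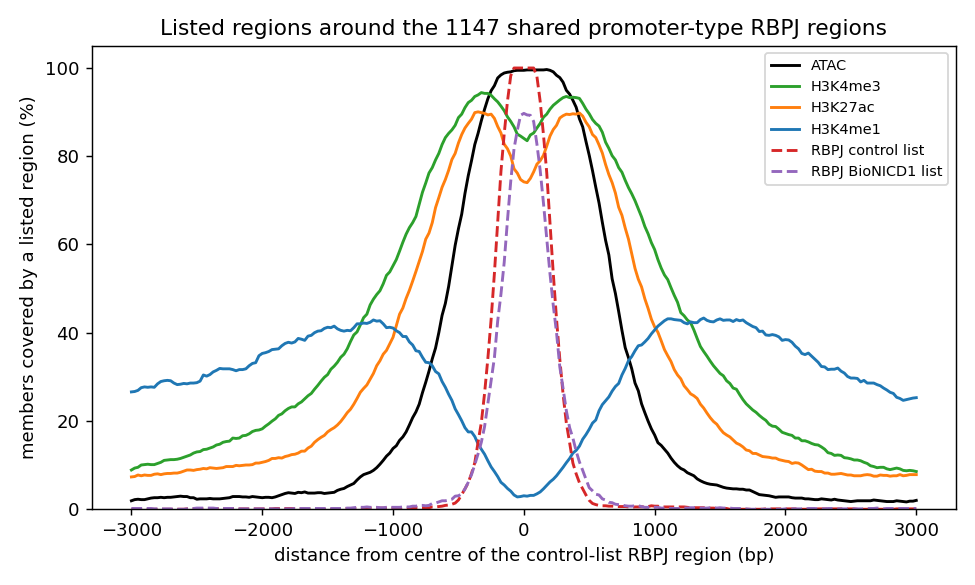
The percent of the 1147 shared regions covered by a region of each list (y axis) against the distance from the centre of the control-list RBPJ region (x axis, bp, 3000 bp to each side). ATAC is highest at the centre, H3K4me3 and H3K27ac dip there to 84.0% and 74.2%, and H3K4me1 is at 3.05% there and highest at 1100 bp.

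H3K4me1 was present beside the members and rare at them. The gap from a member to the nearest H3K4me1 region had a median of 409 bp, against 381 bp for control-only, 335 bp for BioNICD1-only and 0 bp for open H3K4me3 without RBPJ. Within 2000 bp of the centre, 705 members (61.5%) had H3K4me1 on both sides, 395 (34.4%) on 1 side and 47 on neither. Within 1000 bp both sides were marked in 28.4% of members, 30.2% of control-only, 40.3% of BioNICD1-only and 64.4% of open regions without RBPJ. The sets were closer to each other at the wider reach, where the shares for the other 3 sets were 59.7%, 66.7% and 72.5%. In open regions without RBPJ the H3K4me1 profile was highest at 450 bp, with 52.6%, against 44.8% at the centre itself. That centre is an ATAC centre and the mark often covered it, so no position of flanks is read from the profile.

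**Figure D3:**
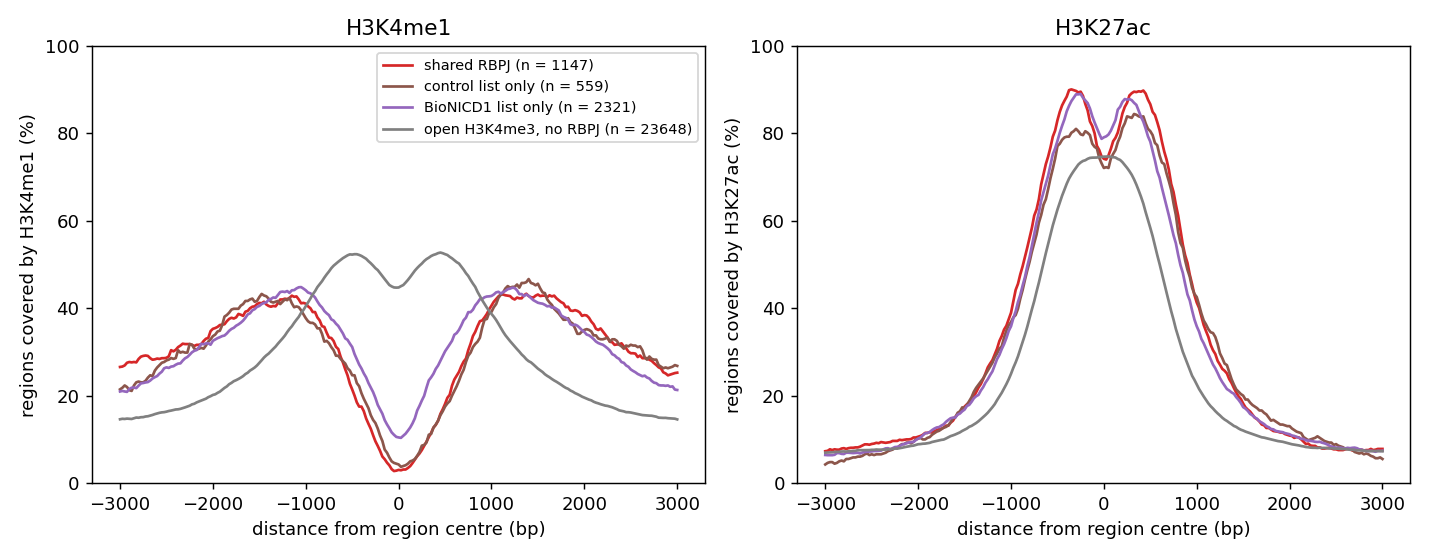
The percent of regions covered by H3K4me1 (left) and H3K27ac (right) against the distance from the region centre (bp), for shared, control-only and BioNICD1-only RBPJ regions at H3K4me3 and for open H3K4me3 without RBPJ. At the centre H3K4me1 covers 3.05%, 4.29%, 10.5% and 44.8% of these sets in that order.

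The low share of H3K4me1 was seen at narrow and wide H3K4me3 regions alike when compared with open regions without RBPJ. The shares here count any overlap of at least 1 bp. The compared regions still differ in width, with medians of 467 bp for members and 816 bp for open regions without RBPJ. A longer region meets the mark more easily, and the part of length in these gaps was not tested. Where the H3K4me3 region was under 1000 bp, 21.2% of 85 members touched H3K4me1, against 35.6% of control-only, 41.0% of BioNICD1-only and 78.5% of regions without RBPJ. From 1000 to under 2000 bp the shares were 18.3% of 453 members, 19.1%, 27.1% and 78.0%. From 2000 to under 4000 bp they were 4.87% of 513 members, 10.3%, 9.29% and 56.0%. Members were lowest in these 3 ranges. At 4000 bp or more the order changed, with 5.21% of 96 members, 2.08% of 48 control-only regions, 9.40% and 32.6%; the members' and control-only shares there stand for 5 and 1 regions. The 131 members that touched H3K4me1 had narrower surroundings than the 1016 that did not, with a median H3K4me3 region of 1586 against 2127.5 bp and a median ATAC region of 1185 against 1347 bp. Their RBPJ centres were about as well matched, at a median distance of 57.5 against 62.75 bp.

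A part of the members sat in a break between neighbouring regions of a mark. Of the 1147, 875 (76.3%) lay wholly inside 1 H3K4me3 region, 137 crossed an edge and 134 (11.7%) touched 2 or more. For H3K27ac, 708 lay wholly inside 1 region, 240 crossed an edge and 176 (15.3%) touched 2 or more. These sets overlapped: 93 members touched 2 or more regions of both marks, 217 of either and 930 of neither. The break between the H3K4me3 regions had a median length of 252 bp (quartiles 223.25 to 304 bp) and that between the H3K27ac regions 257 bp (quartiles 219.5 to 319.25 bp). A wide member reaches 2 regions more easily, and the members at such breaks were wider, with medians of 580.5 bp for H3K4me3 and 563.5 bp for H3K27ac against 441 bp for the 930.

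The share touching 2 or more H3K4me3 regions was 10.4% of control-only, 4.18% of BioNICD1-only and 5.64% of open regions without RBPJ, and for H3K27ac 13.1%, 5.69% and 8.93%. These shares depend on the width of the compared regions, so a measure at the centre was also taken, and it placed BioNICD1-only regions above those without RBPJ for both marks. A centre was counted as lying in a break where the mark did not cover it but lay within 1000 bp on both sides. By this count 14.4% of members lay in a break of H3K4me3, against 12.5% of control-only, 9.22% of BioNICD1-only and 3.20% of open regions without RBPJ. For H3K27ac the shares were 20.6%, 17.7%, 13.8% and 4.35%. These centres are RBPJ centres in 3 sets and ATAC centres in the last. Taken at the ATAC centre in every set, the shares for H3K4me3 were 8.36% of the 1136 ATAC regions with a member, 7.47%, 5.90% and 3.20%, and for H3K27ac 12.4%, 12.2%, 8.35% and 4.35%. The shares at members thus stood above those without RBPJ at either centre and were higher at the RBPJ centre than at the ATAC centre.

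In the 134 members at an H3K4me3 break, the control centre lay a median of 65.25 bp, the BioNICD1 centre 61.75 bp and the ATAC centre 176.75 bp from the middle of the break. At the 176 H3K27ac breaks the medians were 57, 64.5 and 175 bp. These members were picked because the control region spans the break, and each partner is there because it overlaps that control region. The nearness of both RBPJ centres to the middle is therefore largely fixed by the choice, while the ATAC centre was under no such condition, and nothing is read from the difference.

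The 3 widest members that touched 2 regions of both marks illustrate this layout. At chr12:72116113-72117289 a control region of 1177 bp and its partner chr12:72116261-72117091 lay over a break of 251 bp between the H3K4me3 regions chr12:72114852-72116605 and chr12:72116857-72118881. The break in H3K27ac there was 358 bp, and 1 ATAC region of 1555 bp, chr12:72115967-72117521, covered the whole. At chr13:54795082-54796128 the break was 439 bp between H3K4me3 regions of 1816 and 859 bp, and 461 bp in H3K27ac. At chr15:88581382-88582404 it was 353 bp in H3K4me3 and 575 bp in H3K27ac, under an ATAC region of 1717 bp. In all 3 the ATAC region was unbroken where both marks were broken.

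Whether a region was shared went with its width in 1 list and not in the other. Control regions at H3K4me3 were shared at 66.5%, 67.1%, 68.3% and 67.1% in 4 groups of about equal number, from the narrowest to the widest. BioNICD1 regions at H3K4me3, split the same way, were shared at 20.0%, 30.2%, 35.4% and 46.3%. BioNICD1-only regions were accordingly narrow, with a median of 318 bp against 386 bp for the partners of shared regions, while control-only regions had 459 bp against 467 bp for members. Seen from the open H3K4me3 regions, those with wide ATAC regions held a member more often, at 0.232%, 0.884%, 5.00% and 10.3% in 4 groups by ATAC width, and at 0.695%, 1.88%, 4.71% and 9.17% in 4 groups by H3K4me3 width. Wider regions also offer more length for an overlap, and what part of this rise comes from length was not tested.

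**Figure D4:**
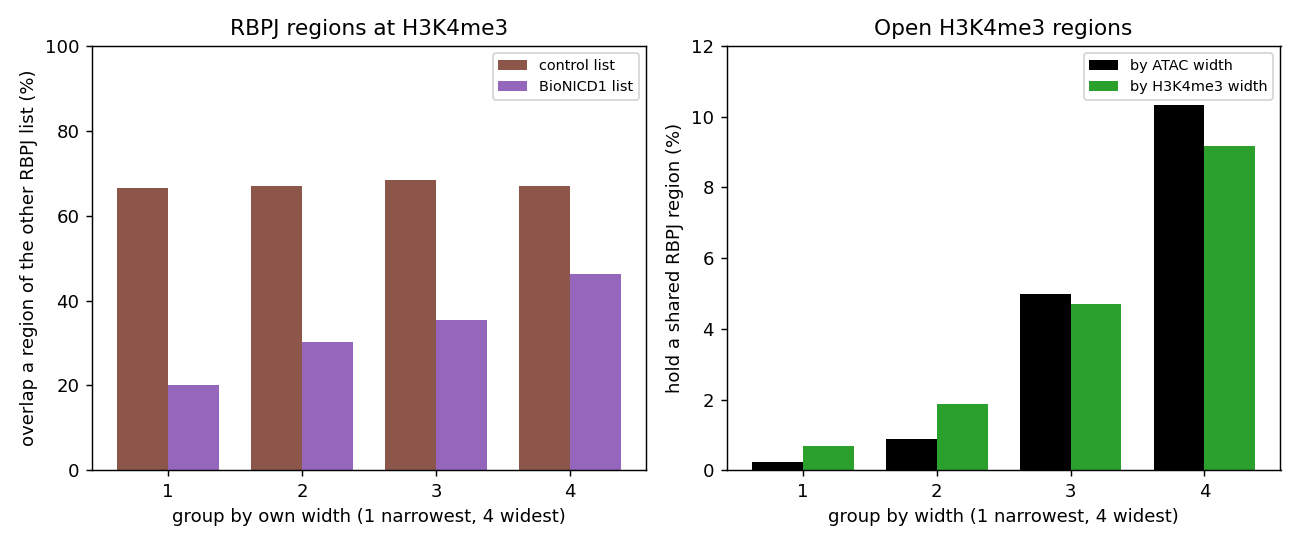
Left, the percent of RBPJ regions at H3K4me3 that overlap the other RBPJ list (y axis) in 4 groups by their own width (x axis), flat near 67% for the control list and rising from 20.0% to 46.3% for the BioNICD1 list. Right, the percent of 27618 open H3K4me3 regions that hold a shared region, in 4 groups by ATAC width and by H3K4me3 width, with 10.3% and 9.17% in the widest groups.

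Open H3K4me3 regions without H3K4me1 at the ATAC centre held members more often in each group by H3K4me3 width. Of 16721 such regions, 1094 (6.54%) held a member, against 42 of 10897 (0.385%) with H3K4me1 there. In the 4 groups by H3K4me3 width, from narrow to wide, the shares without H3K4me1 were 1.51%, 3.82%, 6.36% and 10.4%. With H3K4me1 they were 0.145%, 0.314%, 0.738% and 0.983%. The share was lower with H3K4me1 in all 4 groups. The width of the ATAC region was not held equal in this comparison. The low share of H3K4me1 was not particular to members. H3K4me1 lay at the ATAC centre in 42 of 1136 open regions with a member (3.70%). It lay there in 22 of 549 with a control-only region and no member (4.01%).

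Shared regions were spread over chromosomes 1 to 19 and X, unevenly. Over the genome 4.11% of open H3K4me3 regions held a member, and the median chromosome had 3.85%. The lowest was chromosome 8, with 1.62% (21 members, 1300 open H3K4me3 regions), followed by chromosome 6 with 2.59%. The highest was chromosome 15, with 5.97% (80 members, 1341 open regions), followed by chromosome 1 with 5.84% (107 members) and chromosome 5 with 5.61% (103 members). The other RBPJ sets did not all follow this order. Chromosome 15 had the smallest share of open regions with a BioNICD1-only region, 4.25%, against 11.7% on chromosome 17 and 11.3% on chromosome 7. For all control-list regions chromosome 15 ranked number 3 from the top, and chromosome 5 led with 8.58%. For all BioNICD1-list regions chromosome 15 ranked number 17 from the top. Chromosome 8 was low in the control-only and BioNICD1-only sets too, at 0.308% and 5.54%. It was also the lowest chromosome for all control-list regions, at 1.92%, and for all BioNICD1-list regions, at 7.38%. Of its few control regions at H3K4me3, 84.0% were shared, the highest of the 20 chromosomes. By that share chromosome 6 was lowest, with 55.0%.

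**Figure D5:**
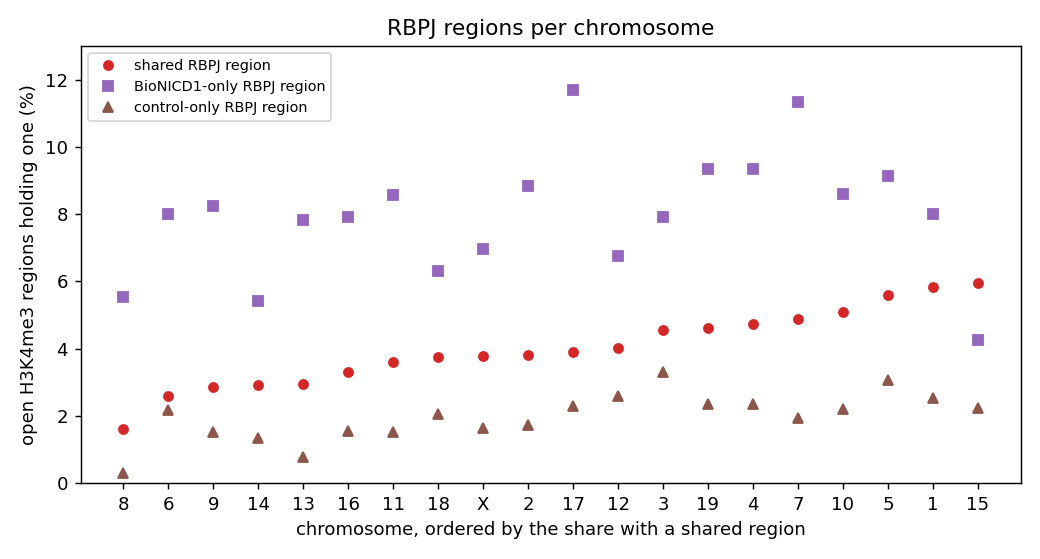
The percent of open H3K4me3 regions that hold a shared, a BioNICD1-only or a control-only RBPJ region (y axis) for each chromosome (x axis, ordered by the share with a shared region). Shared regions run from 1.62% on chromosome 8 to 5.97% on chromosome 15, where the BioNICD1-only share is the lowest, 4.25%.

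Members stood mostly alone. The gap between neighbouring members on a chromosome had a median of 719934 bp. Of 1127 neighbouring pairs, 6 were closer than 1000 bp and 15 closer than 10000 bp. Another BioNICD1 region that no control region overlapped lay within 1000 bp of 21 members (1.83%) and within 5000 bp of 44 (3.84%). The regions of the longer BioNICD1 list were therefore mostly at other loci: of the 1273 H3K4me3 regions that touched a member, 22 also held such a BioNICD1 region. Within 5000 bp the share was 4.83% for control-only regions.

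A few H3K4me3 regions carried a pair of members, each with its own partner. At chr10:41528557-41533239, members chr10:41529559-41530000 and chr10:41530112-41530414 were matched by separate BioNICD1 regions of 419 and 587 bp. In chr11:101411952-101415410 the members chr11:101413079-101413439 and chr11:101413788-101414258 had centres 77 and 45 bp from those of their partners. In chrX:71208278-71213715 the members chrX:71211600-71211827 and chrX:71212636-71213266 were 228 and 631 bp wide. These are loci where both RBPJ lists resolved 2 neighbouring regions in 1 domain.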

How the data were processed

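RBPJ ChIP-seq, histone mark ChIP-seq, ATAC-seq and RNA-seq were made in a mouse hybridoma T cell line. The deposited region lists hold start and end positions, a unit of another kind than counts, with a score of 0 throughout; the peak caller, its threshold and the handling of replicates are not given in the sources used here. Per the submitters' processing notes, TopHat2 2.1.1, Picard, deepTools and mouse build mm9 were used, without their roles. The deposited RNA table holds raw counts per gene symbol (24391), and 10 of its 65 columns were used for the check of the labels and 55 were not used; CPM are counts scaled to a library total of 1000000. The result of 1 marker gene is not reported here.

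Positions were read as 0-based and are printed 1-based. Overlap needed at least 1 bp; where several regions overlapped, the one with the largest overlap was the partner or host. A centre is the midpoint. Profiles were taken every 25 bp to 3000 bp. Regions named are those with the 5 widest and 5 narrowest overlaps, those without ATAC or H3K27ac, and, chosen after their values were seen, the extreme widths, breaks and pairs. Members and lists were chosen with earlier results of these data known. Work was done in Python 3.11.15 with numpy 2.4.6, pandas 2.3.3 and matplotlib 3.10.9, and the overlap code was tested on simulated data. Gene assignment, motif search and tests of gene expression at the members had been planned and were not run, because they need an mm9 annotation or genome and the tables at hand are of another build. Alternatives were a stricter overlap, wide regions only, a 500 bp window, the centre base, and limits on the centres.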

Additional observations from a re-analysis of the deposited data

How the results depend on the processing

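The number of shared regions was 856 with at least 50% of the control region covered in each list, 1023 with that condition for H3K4me3 only, 592 among control regions at least as wide as the list median of 462 bp, and, in alternatives chosen after seeing the data, 768 with centres at most 100 bp apart and 964 with the centre inside H3K4me3. The ATAC share was 100% among wide members. The H3K27ac share was 79.2% with at least 50% of the member covered, 74.2% at the centre base and 99.2% among wide members. At the centre base it was 72.1% of control-only, 79.1% of BioNICD1-only and 74.7% of open regions without RBPJ. The H3K4me1 share was 3.05% with at least 50% covered and also 3.05% at the centre base, and 14.0% in a 500 bp window. Under each of these measures, and among wide members, the H3K4me1 share of members stayed below that of control-only, BioNICD1-only and open regions without RBPJ. The drops under the stricter measures follow from their construction, since fewer regions can meet them; the cause of the other shifts was not tested. The median distance of the RBPJ centres was 55.25 bp with the stricter overlap and 89.5 bp among wide members.

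Chromosome 8 had the lowest share of open H3K4me3 regions with a member under each of these definitions. Chromosome 15 had the highest except with the centre inside H3K4me3, where chromosome 1 led with 5.23% against 5.07%.

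No paired analysis was possible because the region lists carry no replicates and no result comes from a test. The planned tests of gene expression with their alternatives and the motif window were not run, for want of an mm9 annotation. Depth behind the region lists is unknown. The lists' thresholds are not given in the sources used here.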
